A study of Arabidopsis thaliana with 12 samples.

Results

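Embryos with 3 genome copies were compared between 2 pollen donors. The 3x nrpd1 embryos came from diploid Col-0 mothers pollinated by a tetraploid plant that lacks NRPD1 (allele nrpd1-3, labelled pol4), and the 3x wt embryos from the same kind of mother pollinated by tetraploid Col-0. Each group has 3 libraries, so 6 of the 12 libraries of the series belong to the comparison. The other 6 libraries hold 2x nrpd1 and 2x wt embryos, from diploid nrpd1 and diploid Col-0 pollen. The mother was Col-0 in every cross, so each nrpd1 embryo also carries a functional maternal copy, and both tetraploid donors were made with colchicine. Each library was made from about 150 hand-dissected torpedo-stage embryos that were washed to remove endosperm, and replicates came from crosses of different plants. The labels give 8 days after pollination (DAP) for both triploid groups and 6 DAP for both diploid groups. In another place the study's text puts the 3x nrpd1 embryos at the age of the diploid ones, so the ages of the triploid groups may differ. The values are RPKM, read counts divided by exon length and by library size. In such bulk samples, fewer cells of a type and less RNA per cell cannot be told apart.

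NRPD1 encodes the largest subunit of RNA polymerase IV, a plant enzyme that starts the synthesis of small interfering RNAs used to direct DNA methylation. A cross of a diploid mother with tetraploid wild-type pollen gives an excess of paternal genomes in the seed, the endosperm around the embryo fails to form cell walls, and the embryo arrests. Loss of NRPD1 in the pollen parent is known to restore endosperm cellularization and seed survival in such crosses. During normal maturation, which follows the torpedo stage, embryos fill with storage proteins and oil and then make dehydrins and other late embryogenesis abundant (LEA) proteins under the control of abscisic acid (ABA) and of a network of transcription factors.

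A gene was called when its values differed by more than 1 on the log2(RPKM + 0.5) scale with an adjusted p under 0.05 (limma, Benjamini-Hochberg adjustment over all genes tested). Of 17913 genes tested, 570 were higher and 1165 lower in 3x nrpd1 embryos, set against 3x wt, which are 3.18% and 6.50% of the genes tested. The 10 largest lower differences included genes of seed storage (CRC), dehydration (LEA and PER1), the oil body (both HSD1 copies) and iron deficiency (AT1G47395 and AT1G47400), beside 3 genes of no list, and all 10 seed storage genes were lower. These shares of all genes tested are the background for the counts of every list that follows. The median difference over all genes tested was -0.01, and 42.0% of them had 6 libraries that did not overlap between the groups.

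The 250 bases before the annotated start of 4 of the most reduced genes are shown here, because storage and LEA genes are known for 2 short motifs in this region. Capitals mark the RY core (CATGCA), which B3 factors such as ABI3 bind, and the ABRE core (ACGTG), which bZIP factors such as ABI5 bind, each searched on both strands. The sequences were read from the TAIR10.1 genome, and no other annotated gene overlaps any of the 4 windows.
CRC (chromosome 4, 14087306 to 14087555, plus strand): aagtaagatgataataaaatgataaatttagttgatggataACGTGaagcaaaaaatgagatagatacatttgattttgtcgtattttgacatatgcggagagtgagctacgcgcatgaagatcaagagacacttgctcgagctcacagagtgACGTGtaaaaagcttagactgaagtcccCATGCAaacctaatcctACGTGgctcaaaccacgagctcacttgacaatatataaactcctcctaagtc
SESA4 (chromosome 4, 13613346 to 13613595, plus strand): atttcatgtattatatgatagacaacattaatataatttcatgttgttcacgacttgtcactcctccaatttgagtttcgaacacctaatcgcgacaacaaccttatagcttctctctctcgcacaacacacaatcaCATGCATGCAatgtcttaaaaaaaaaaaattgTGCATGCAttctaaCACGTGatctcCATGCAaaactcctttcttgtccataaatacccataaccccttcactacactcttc
LEA AT2G21490 (chromosome 2, 9207126 to 9207375, minus strand): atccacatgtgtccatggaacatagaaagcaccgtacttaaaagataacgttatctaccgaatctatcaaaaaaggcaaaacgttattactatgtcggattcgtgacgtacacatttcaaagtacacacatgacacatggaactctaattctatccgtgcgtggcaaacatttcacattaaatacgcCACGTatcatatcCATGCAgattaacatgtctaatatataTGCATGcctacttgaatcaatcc
AT1G04560 (chromosome 1, 1244697 to 1244946, plus strand): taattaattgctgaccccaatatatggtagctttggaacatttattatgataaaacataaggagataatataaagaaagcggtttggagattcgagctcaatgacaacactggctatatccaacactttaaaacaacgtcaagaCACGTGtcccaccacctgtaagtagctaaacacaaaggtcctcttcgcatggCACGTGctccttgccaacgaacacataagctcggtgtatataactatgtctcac

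Matches overlap where the letters do, so the 2 CACGTG words of AT1G04560 count as 4 ABRE cores, 1 on each strand, and SESA4 holds 6 RY cores and 2 ABRE cores. The RY core was present in 9 of the 10 windows of the storage genes and the ABRE core in 15 of 17 windows of the LEA and dehydration genes that were lower (88.2% of them). The ABRE core was in 6 of these 10 storage windows and the RY core in 4 of these 17 LEA and dehydration windows. Over all genes lower in 3x nrpd1 embryos, 13.5% of 1162 windows held the RY core and 35.6% held the ABRE core. Among the 570 windows of higher genes these shares were 7.54% and 23.7%. Among the 17836 windows of the genes tested they were 7.45% and 23.4%, and among all 32834 windows of this length in the genome 8.83% and 21.6%. A match is a description of the letters and shows no binding.

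The 3x nrpd1 replicate 3 library stood apart from the other 5, and it did so along the length of the genes. Its median log2 deviation from the other 5 libraries was 0.71 in the shortest of 5 equal bins of exon length (median 877 bases) and 0.36, 0.08, -0.23 and -0.72 in the next bins, the last with a median length of 3234 bases. The other 5 libraries stayed between -0.16 and 0.17 in every bin. Its Pearson correlation with 3x nrpd1 replicates 1 and 2 was 0.940 and 0.936, against 0.980 between those 2 libraries and 0.974 to 0.982 within 3x wt. The median SD per gene on the log2 scale was 0.338 in 3x nrpd1 and 0.161 in 3x wt, and it was 0.117 over 3x nrpd1 replicates 1 and 2 alone. Read totals recovered from the steps of the RPKM values were 7185975 to 11602557 in 3x nrpd1 and 6851605 to 9101778 in 3x wt.

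The length trend shifted the calls, mostly those of short and of long genes. In the shortest of 4 equal bins of exon length (up to 1244 bases), 267 genes were higher and 359 lower with all libraries, 212 and 511 after the trend of each library was removed, and 174 and 499 without 3x nrpd1 replicate 3. In the longest bin (from 2396 bases) the counts were 41 higher and 212 lower, then 88 and 168, then 62 and 173. Over all genes, removal of the trend gave 553 higher and 1347 lower genes (3.09% and 7.52% of those tested), of which 458 and 1098 were among those of the fit without it. Without 3x nrpd1 replicate 3, 449 genes were higher and 1311 lower (2.54% and 7.43%), of which 358 and 1061 were shared. The drop in higher calls was thus in the short genes.

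**Figure D1:**
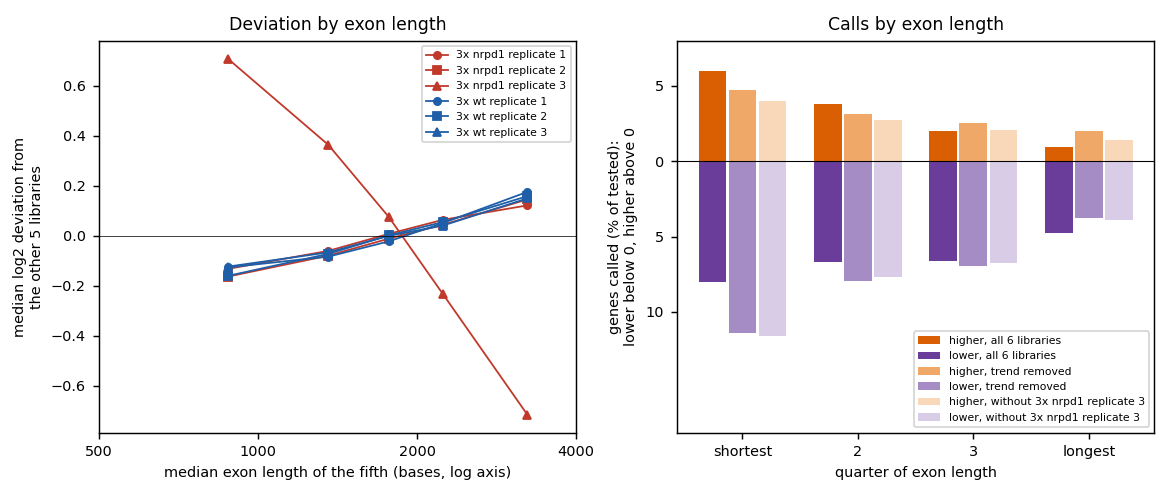
Left, the median log2 deviation of each triploid library from the other 5, by bin of exon length (5 bins, log axis), with triangles for replicate 3: 3x nrpd1 replicate 3 is at 0.71 in the shortest bin and at -0.72 in the longest, and the other libraries stay within -0.16 and 0.17. Right, the share of tested genes called higher (above 0) or lower (below 0) in 3x nrpd1, in 4 bins of exon length, with all 6 libraries, with the trend removed and without that library: in the shortest bin 5.98%, 4.75% and 4.03% were higher.

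The counts depended most on the 3x wt libraries. Without 3x wt replicate 1, 391 genes were higher and 687 lower (2.24% and 3.94%). When 3x wt replicate 2 was left out the counts were 176 and 348 (1.01% and 1.99%). When 3x wt replicate 3 was left out they were 200 and 355 (1.15% and 2.03%). In each of these fits 279 of the 1165 lower genes could not be tested, because they reached 1 RPKM in no 3x nrpd1 library and the filter asks for 3 libraries. In the same way 80 of the 570 higher genes could not be tested when any 3x nrpd1 library was left out. All 570 higher and 1165 lower genes had libraries that did not overlap between the groups. That no called gene changed sign when any of the 6 libraries was left out therefore adds no support. In all 6 of these fits, 126 higher and 329 lower genes were called.

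NRPD1 itself had 3.42, 3.61 and 1.78 RPKM in the 3x nrpd1 libraries, against 1.46, 2.17 and 1.62 RPKM in the 3x wt libraries. The ranges of the groups overlapped and the gene was not called (log2 difference 0.58 ± 0.27 (SE), adjusted p = 0.18 by limma), and the transcript level does not check the labels, since transcripts of a mutant allele and of the maternal copy are both counted. Of 24 tested genes of RNA-directed DNA methylation, the pathway that polymerase IV serves, none was called in either direction with all libraries (median difference 0.01), and 1 was higher after the trend was removed. With quantile normalization 1 was lower, and likewise without 3x nrpd1 replicate 2. AGO6, which encodes an Argonaute protein that carries the small RNAs, had 11.2, 10.7 and 3.85 RPKM in 3x nrpd1 and 8.47, 6.53 and 8.62 RPKM in 3x wt embryos.

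Seed storage proteins were lower in 3x nrpd1 embryos without exception. All 10 genes of the list (12S cruciferins, 2S albumins and a 7S globulin) were called, against 6.50% of all genes, with a median difference of -3.86. Their summed level was 1850, 2082 and 2266 RPKM in the 3x nrpd1 libraries, against 21095, 31283 and 39348 RPKM in the 3x wt libraries, a ratio of 0.0676. The groups lay far apart, and the exact permutation test gave p = 0.1, the smallest that 3 against 3 libraries allow. The same 10 genes took 0.267% of the summed RPKM of a 3x nrpd1 library and 4.1% of that of a 3x wt library on average.

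CRC, a 12S cruciferin, had 41.5, 66.7 and 26.1 RPKM in 3x nrpd1 and 2153, 3676 and 4457 RPKM in 3x wt embryos (log2 difference -6.27 ± 0.36 (SE), adjusted p = 8.9e-05 by limma). SESA4, a 2S albumin, had 52.1, 42.2 and 63.1 RPKM in 3x nrpd1 and 1566, 2406 and 3062 RPKM in 3x wt embryos (-5.42 ± 0.34). CRB, another cruciferin, had 16.5 to 28.1 RPKM in 3x nrpd1 and 473 to 1000 RPKM in 3x wt embryos (-5.15 ± 0.33). In each of these genes every 3x wt library was more than 10 times above every 3x nrpd1 library. The smallest change of the list was that of SESA1, with 321, 395 and 545 RPKM in 3x nrpd1 and 1890, 2745 and 3145 RPKM in 3x wt embryos (-2.61 ± 0.38). SESA1, SESA2 and SESA3 are neighbours on chromosome 4 with 84.4% and 85.7% identical bases between adjacent copies, so reads could have been split among them. 9 of the 10 kept their calls without any single 3x wt library. AT1G03890, the weakest of them in level, had 0, 0 and 0.0916 RPKM in 3x nrpd1 embryos against 3.95, 9.18 and 6.91 RPKM in 3x wt embryos, and it fell under the filter when a 3x wt library was left out.

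**Figure D2:**
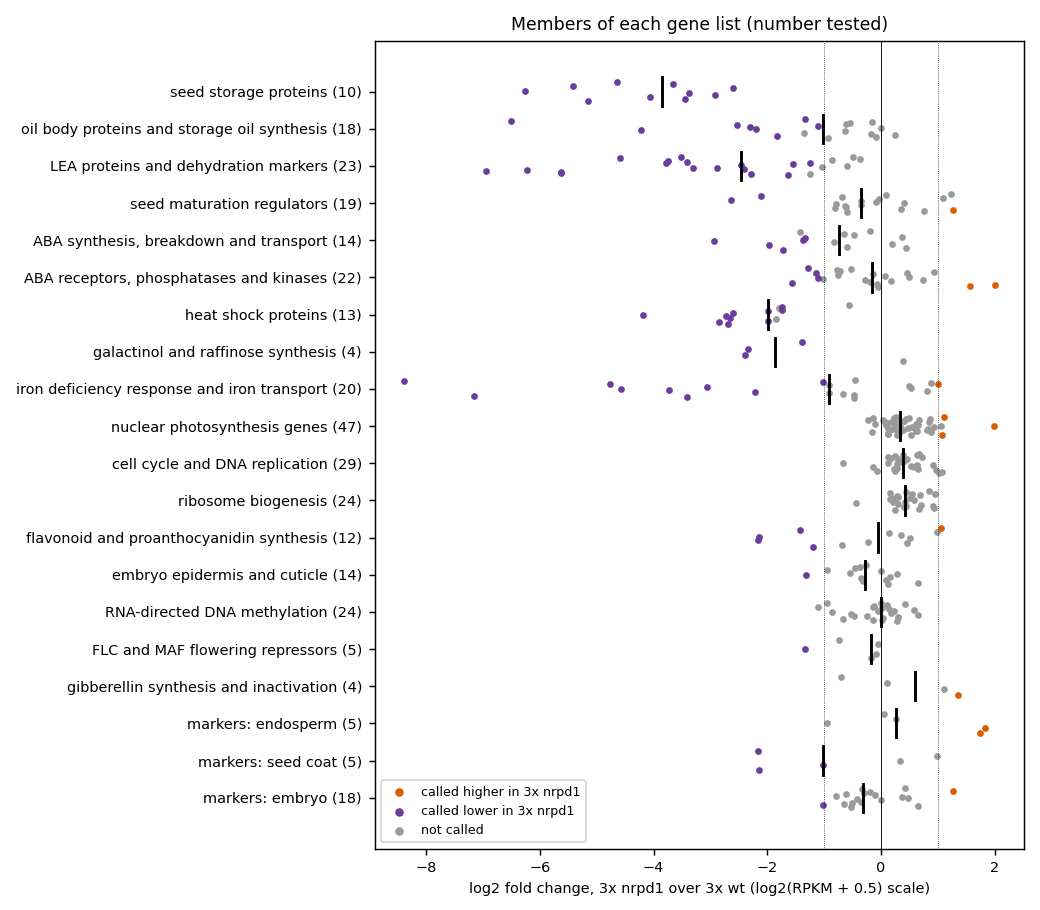
Log2 difference of each tested member of the gene lists, 3x nrpd1 over 3x wt, with the median of each list as a black bar and the called genes in orange (higher) or purple (lower). The 10 seed storage genes lie between -6.27 and -2.61, while no member of the cell cycle, ribosome biogenesis or RNA-directed DNA methylation lists is coloured.

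Part of the list of oil body proteins and storage oil synthesis was lower as well. Of 18 members, 8 were lower and none higher (median -1.02). When either 3x wt replicate 2 or replicate 3 was left out, 17 could still be tested and 4 were lower. HSD1 (AT5G50600), the steroleosin of the oil body surface, had 0.464, 0.416 and 0.856 RPKM in 3x nrpd1 and 73.7, 113 and 117 RPKM in 3x wt embryos. It has a copy (AT5G50700) identical in every base of the shorter one, with 0.456, 0.715 and 1.05 RPKM in 3x nrpd1 and 74.0, 112 and 118 RPKM in 3x wt embryos, and how reads were divided between the copies is not known. CLO1, a caleosin, had 8.76, 11.2 and 19.1 RPKM in 3x nrpd1 and 179, 249 and 315 RPKM in 3x wt embryos (-4.21 ± 0.39, adjusted p = 0.00062 by limma). Both proteins sit on the oil body, and neither group's range came near the other's. SUS3, a sucrose synthase, was also lower (-2.53 ± 0.35), while the oleosins OLEO2 and OLEO3 were not called (-1.35 and -0.63). OLEO1, the main oleosin, had 1311, 1308 and 1655 RPKM in 3x nrpd1 and 5421, 7714 and 8575 RPKM in 3x wt embryos (-2.31 ± 0.41, adjusted p = 0.0095), a call that was lost without 3x wt replicate 2 or 3. PKP2, a plastid pyruvate kinase that feeds fatty acid synthesis, had 533, 546 and 329 RPKM in 3x nrpd1 and 491, 450 and 441 RPKM in 3x wt embryos (0.01 ± 0.20).

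Among LEA proteins and dehydration markers, 17 of 23 tested members were lower and none was higher, with a median of -2.45. The count was 19 without 3x nrpd1 replicate 3 and 20 after the length trend was removed, and 11 of 19 still tested without 3x wt replicate 2. The dehydrin gene LEA (AT2G21490) had 0.928, 0.485 and 0.499 RPKM in 3x nrpd1 and 104, 150 and 177 RPKM in 3x wt embryos (-6.95 ± 0.25, adjusted p = 1.2e-05 by limma). PER1, a peroxiredoxin of dry seeds, had 2.36, 2.47 and 2.4 RPKM in 3x nrpd1 and 157, 248 and 276 RPKM in 3x wt embryos (-6.23 ± 0.25). The dehydrin RAB18 had 0.0975, 0 and 0 RPKM in 3x nrpd1 and 24.8, 27.0 and 25.9 RPKM in 3x wt embryos. It overlaps a gene on the other strand, and its fitted difference of -5.62 depends on the pseudocount of 0.5. ERD10, a dehydrin with a broader range of tissues, was the member nearest 0, with 32.6, 36.4 and 34.8 RPKM in 3x nrpd1 and 31.8, 52.3 and 56.6 RPKM in 3x wt embryos (-0.38 ± 0.26, adjusted p = 0.36). 6 members were not tested because they did not reach 1 RPKM in 3 triploid libraries.

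**Figure D3:**
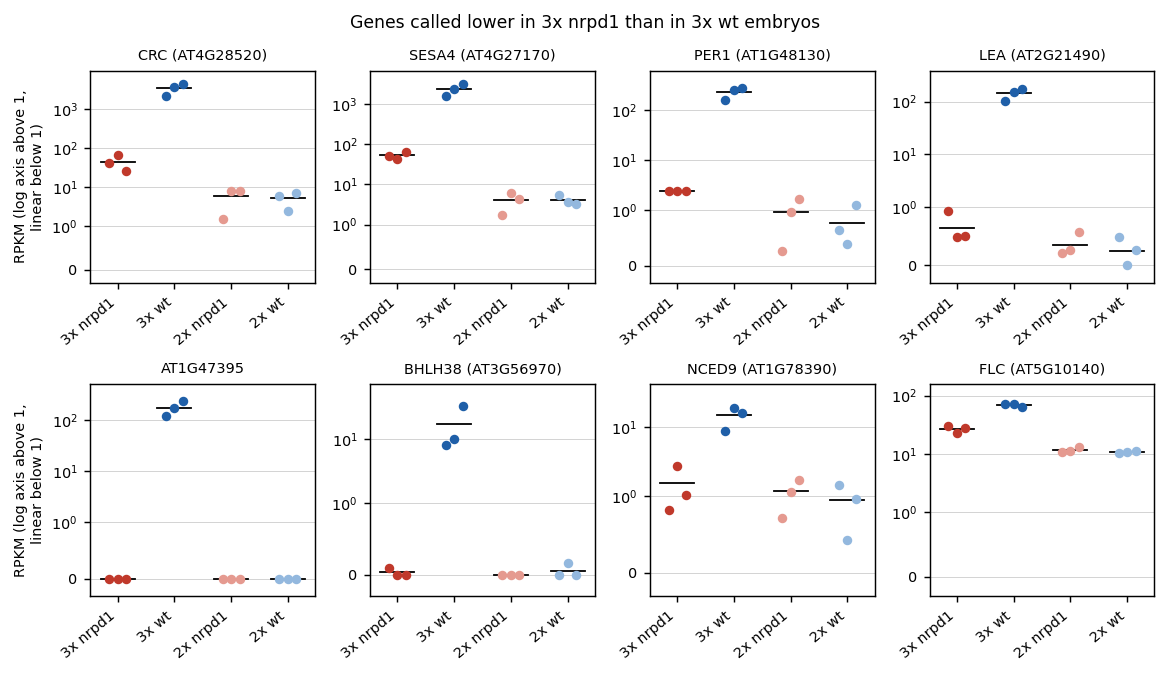
RPKM of 8 genes in every library (points) with the group mean (line), on an axis that is logarithmic above 1 and linear below. The 3x wt libraries are the highest of all 12 in each panel, from CRC (2153 to 4457 RPKM) to FLC (62.8 to 72.4 RPKM), and AT1G47395 is listed at 0 in the 9 others.

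3 genes outside the lists were at or near 0 RPKM in 3x nrpd1 embryos and well above it in 3x wt embryos. AT1G04560, an AWPM-19-like membrane protein, had 0.101, 0 and 0.488 RPKM in 3x nrpd1 and 65.7, 113 and 125 RPKM in 3x wt embryos. MSRB6, a methionine sulfoxide reductase that repairs oxidised proteins, was listed at 0 in all 3 3x nrpd1 libraries and had 19.6, 32.3 and 35.3 RPKM in 3x wt embryos, at least 81.1-fold lower against a floor of 3 reads per library. AT4G07965, an uncharacterized gene on chromosome 4 (4808635 to 4809352), was listed at 0 in 3x nrpd1 and had 43.4, 45.2 and 39.7 RPKM in 3x wt embryos, at least 48.5-fold lower. It was also listed at 0 in both diploid groups, as were 23 other genes with at least 1 RPKM in each 3x wt library. The tetraploid donors were separate lines, and a difference between them other than NRPD1 cannot be told apart from that of NRPD1 in this comparison. Of the 1165 lower genes, 124 had at most 3 reads in each 3x nrpd1 library, and of the 570 higher genes 35 had at most 3 reads in each 3x wt library, so their fitted differences depend on the pseudocount. With such genes set to the difference that 3 reads allow, the medians of the storage and of the LEA lists were -4.35 and -2.45.

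Few of the regulators of maturation, most of them transcription factors, were called. Of 19 members, 2 were lower and 1 was higher (median -0.35), against 6.50% and 3.18% of all genes. When any one 3x wt library was left out, 18 could still be tested and 1 was lower. Without 3x nrpd1 replicate 3, 2 were higher and 2 lower. ABI5, a bZIP factor of the ABA response, had 9.47, 14.1 and 6.63 RPKM in 3x nrpd1 and 31.5, 50.9 and 52.6 RPKM in 3x wt embryos (-2.12 ± 0.27, adjusted p = 0.0026 by limma). DOG1, which sets seed dormancy, was listed at 0 in 3x nrpd1 and had 1.56, 3.10 and 3.71 RPKM in 3x wt embryos. LEC1, a subunit of the CCAAT-binding factor that keeps embryonic fate, went the other way, with 192, 196 and 190 RPKM in 3x nrpd1 and 101, 78.6 and 65.2 RPKM in 3x wt embryos (1.27 ± 0.20, adjusted p = 0.0063). The LEC1 call was lost without 3x wt replicate 2 or 3, while the groups did not overlap. The B3 factors were not called with all libraries. ABI3 had 185, 169 and 31.5 RPKM in 3x nrpd1 and 183, 156 and 147 RPKM in 3x wt embryos (-0.68 ± 0.51, adjusted p = 0.39), and only 3x nrpd1 replicate 3 was low. FUS3 had 61.5, 51.1 and 28.7 RPKM in 3x nrpd1 and 61.9, 73.7 and 73.7 RPKM in 3x wt embryos (-0.61 ± 0.21, adjusted p = 0.092). LEC2 had 17.5, 17.3 and 7.61 RPKM in 3x nrpd1 and 7.75, 8.59 and 6.87 RPKM in 3x wt embryos (0.76 ± 0.24, adjusted p = 0.076), with 3x nrpd1 replicate 3 again among the 3x wt values. BZIP25 was the member nearest 0, with 9.57 to 17.3 RPKM in 3x nrpd1 and 12.3 to 17.1 RPKM in 3x wt embryos (-0.03 ± 0.21).

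ABA metabolism was lower at a few steps. Of 14 tested genes for synthesis, breakdown and transport, 5 were lower and none higher (median -0.74). When any one 3x wt library was left out, 12 could still be tested and 1 was lower. NCED9, a dioxygenase of the step that limits ABA synthesis, had 0.827, 2.8 and 1.05 RPKM in 3x nrpd1 and 8.95, 19.4 and 16.4 RPKM in 3x wt embryos (-2.94 ± 0.40, adjusted p = 0.0035 by limma), and it kept its call in every fit that left out 1 library. CYP707A2, a hydroxylase that breaks ABA down, had 0.0436, 0.137 and 0.282 RPKM in 3x nrpd1 and 2.13, 1.89 and 2.29 RPKM in 3x wt embryos (-1.97 ± 0.31), levels close to the filter of 1 RPKM. So a gene of synthesis, NCED9, and a gene of breakdown, CYP707A2, were both lower. NCED3, of the same step as NCED9, was more abundant, with means of 44.1 RPKM in 3x nrpd1 and 76.9 RPKM in 3x wt embryos. Its difference of -0.83 ± 0.19 did not pass the threshold of 1. The related hydroxylases were more abundant: CYP707A1 had 30.5, 33.2 and 17.5 RPKM in 3x nrpd1 and 41.2, 41.0 and 43.3 RPKM in 3x wt embryos (-0.65 ± 0.18), and CYP707A3 had 29.8, 27.6 and 15.4 RPKM in 3x nrpd1 and 40.1, 30.4 and 38.4 RPKM in 3x wt embryos (-0.60 ± 0.20). Neither passed the threshold of 1. CYP707A4 and SNRK1.3 were listed at 0 in the 3x nrpd1 libraries and stayed under 0.6 RPKM in 3x wt embryos. BG1, which frees ABA from its glucose ester, was also lower (-1.72 ± 0.36), at 0.062 to 0.255 RPKM in 3x nrpd1 and 1.11 to 2.34 RPKM in 3x wt embryos. ABA3, which activates the last enzyme of ABA synthesis, had 1.47, 1.62 and 0.908 RPKM in 3x nrpd1 and 1.94, 1.55 and 2.65 RPKM in 3x wt embryos (-0.47 ± 0.27, adjusted p = 0.28). ABA2, which acts a step earlier, was nearest 0, with 29.3 to 42.6 RPKM in 3x nrpd1 and 28.7 to 33.8 RPKM in 3x wt embryos (0.19 ± 0.24).

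In ABA signalling, 2 receptor genes were higher and 4 genes were lower among 22 tested (median -0.16), and 2 were lower when any one 3x wt library was left out. PYL2, an ABA receptor, had 50.4, 43.2 and 58 RPKM in 3x nrpd1 and 15.8, 13.8 and 8.41 RPKM in 3x wt embryos (2.01 ± 0.28, adjusted p = 0.0039 by limma). PYL8, another receptor, had 14.4, 21.0 and 17 RPKM in 3x nrpd1 and 7.99, 4.44 and 4.74 RPKM in 3x wt embryos (1.57 ± 0.26). PYL2 kept its call without any single library, and PYL8 lost it without 3x wt replicate 2 or 3. PYL7, a receptor of the same family, was lower (-1.28 ± 0.18), with 3.34 to 3.71 RPKM in 3x nrpd1 and 9.30 to 9.61 RPKM in 3x wt embryos. AHG1, a phosphatase that restrains ABA responses in seeds, had 0.282, 1.24 and 0.729 RPKM in 3x nrpd1 and 2.67, 4.53 and 2.29 RPKM in 3x wt embryos (-1.56 ± 0.38). SNRK2.8, a kinase of the pathway, was under the filter, with 0.157, 0.328 and 0.0843 RPKM in 3x nrpd1 and 1.01, 0.666 and 0.973 RPKM in 3x wt embryos. SNRK2.1, a related kinase, was the member nearest 0 (-0.05 ± 0.18). The kinase SNRK2.3 (-1.14 ± 0.16) and the phosphatase HAB1 (-1.11 ± 0.30) were the other lower genes.

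The heat shock list, mostly chaperones that also accumulate in maturing seeds, was lower in 10 of 13 members and higher in none (median -1.99). When any one 3x wt library was left out, 11 of the 13 could still be tested. Of these, none was called without replicate 2, 1 was lower without replicate 3 and 5 without replicate 1. Without 3x nrpd1 replicate 3, all 13 were tested and 12 were lower. HSP101 had 15.6, 82.4 and 25.5 RPKM in 3x nrpd1 and 178, 279 and 195 RPKM in 3x wt embryos (-2.69 ± 0.52, adjusted p = 0.014 by limma). HSP22, of the endoplasmic reticulum, had 0, 0.855 and 0 RPKM in 3x nrpd1 and 9.41, 24.9 and 7.54 RPKM in 3x wt embryos (-4.19 ± 0.53). In both genes the 3x nrpd1 replicate 2 library was the highest of its group and 3x wt replicate 2 the highest of the other. HSP21, a chaperone of plastids, was listed at 0 in 3x nrpd1 and had 3.13, 7.26 and 1.24 RPKM in 3x wt embryos. AT2G29500, of the small heat shock proteins, had 1.57, 12.5 and 4.28 RPKM in 3x nrpd1 and 26.4, 54.2 and 26.1 RPKM in 3x wt embryos. HSP18.2 was nearest 0, with 1.48, 2.12 and 1.79 RPKM in 3x nrpd1 and 3.28, 4.86 and 1.46 RPKM in 3x wt embryos (-0.56 ± 0.38). Galactinol and raffinose synthesis, which makes protective sugars, had 3 of 4 tested genes lower (median -1.86), at low levels. When any one 3x wt library was left out, 3 could still be tested and 1 was lower. GOLS1, a galactinol synthase, had 0, 0.998 and 1.44 RPKM in 3x nrpd1 and 4.05, 7.46 and 6.03 RPKM in 3x wt embryos, and its call was lost without any one of the 3x wt libraries. DIN10 and RS5, of raffinose metabolism, were lower by -2.33 and -1.39, and SIP2 was nearest 0 (0.39 ± 0.19).

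Genes of the iron deficiency response were among the most reduced of all. Of 20 tested genes of iron deficiency and iron transport, 9 were lower and 1 was higher (median -0.91), and 2 were lower without 3x wt replicate 1 and 1 without replicate 2 or 3 of that group, where 6 members at the floor in 3x nrpd1 could no longer be tested. AT1G47395, a short IMA peptide gene of the iron list on chromosome 1 (17382998 to 17383830), had the largest difference of all genes called. The annotation used here names its product only as an uncharacterized protein. It was listed at 0 in 3x nrpd1 and had 121, 173 and 232 RPKM in 3x wt embryos, at least 393-fold lower against 3 reads per library. AT1G47400, which lies 1876 bases downstream (17385707 to 17386485), was also listed at 0 in 3x nrpd1 and had 45.9, 65.9 and 121 RPKM in 3x wt embryos. The pair shares 73.4% of bases, so that some reads could match either gene. BHLH38, a factor that turns on iron uptake genes, had 0.0945, 0 and 0 RPKM in 3x nrpd1 and 8.11, 10.0 and 33.0 RPKM in 3x wt embryos. Its relatives BHLH39 and BHLH100 were listed at 0 in 3x nrpd1 and reached 15.2 and 7.5 RPKM in 3x wt replicate 3, the highest 3x wt library for all of these genes. FRO3, a ferric reductase of mitochondria, had 1.75, 3.21 and 1.29 RPKM in 3x nrpd1 and 22.1, 24.3 and 32.4 RPKM in 3x wt embryos (-3.41 ± 0.27, adjusted p = 0.00031 by limma), and this call held without any single library. FER4, a ferritin that stores iron, was the 1 higher member, with 28.6, 25.1 and 25.6 RPKM in 3x nrpd1 and 20.3, 12 and 9.0 RPKM in 3x wt embryos (1.01 ± 0.27, adjusted p = 0.044), and it was not called after the length trend was removed or without any of 5 libraries. OPT3, which loads iron into the phloem, had 177, 168 and 110 RPKM in 3x nrpd1 and 204, 205 and 208 RPKM in 3x wt embryos (-0.45 ± 0.17).

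The higher side held smaller differences, with a median of 1.37 over its 570 genes against -1.69 over the 1165 lower ones. ENODL10, an early nodulin-like protein of the cell surface, had 19.7, 18.8 and 27.3 RPKM in 3x nrpd1 and 2.64, 0.455 and 0.805 RPKM in 3x wt embryos (3.83 ± 0.44, adjusted p = 0.0017 by limma). AT5G22520, an uncharacterized gene, had 15.9, 18.1 and 23.0 RPKM in 3x nrpd1 and 0.853, 1.47 and 0.976 RPKM in 3x wt embryos (3.62 ± 0.29). RGP3, a reversibly glycosylated polypeptide, had 35.1, 60.3 and 33.0 RPKM in 3x nrpd1 and 10.5, 3.66 and 2.81 RPKM in 3x wt embryos (2.98 ± 0.41). In all of these the groups were apart, and 3x wt replicate 1 had the highest 3x wt value of ENODL10 and RGP3. AT1G50650, a Stig1 family gene, showed this most, with 33.2, 30.6 and 38.2 RPKM in 3x nrpd1 and 9.72, 2.3 and 1.11 RPKM in 3x wt embryos, and it was not called without 3x wt replicate 2. Others of the 10 largest were AT5G55410, a lipid transfer protein (3.66 ± 0.56), THI2.2, a thionin (3.06 ± 0.31), and AT1G12080, a vacuolar calcium-binding protein-like gene (2.96 ± 0.31), each called without any single library. AT2G41082, uncharacterized, was listed at 0 in 3x wt and had 6.57, 3.86 and 9.28 RPKM in 3x nrpd1 embryos, at least 4.27-fold higher against 3 reads per library.

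**Figure D4:**
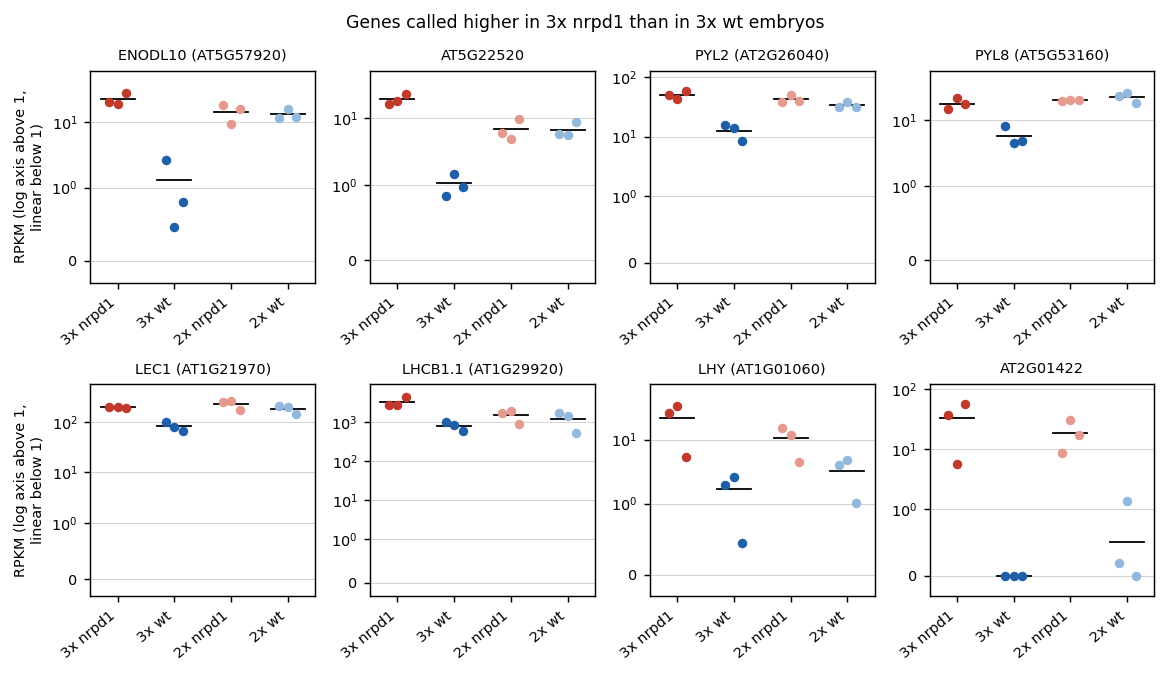
RPKM of 8 genes in every library (points) with the group mean (line), on an axis that is logarithmic above 1 and linear below. The 3 3x wt libraries are the lowest in the panels of ENODL10, AT5G22520, PYL2, PYL8 and LEC1, and AT2G01422 is high in both nrpd1 groups (5.78 to 55.8 RPKM in 3x nrpd1) and listed at 0 in 3x wt.

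Genes of photosynthesis, cell division and ribosome assembly had positive median differences with few or no calls. Of 47 nuclear photosynthesis genes, 3 were higher and none lower (median 0.33), against 3.18% of all genes called higher. LHCB1.1, a light-harvesting protein of photosystem II with near-identical copies, had 2709, 2667 and 4313 RPKM in 3x nrpd1 and 981, 857 and 609 RPKM in 3x wt embryos (1.99 ± 0.39, adjusted p = 0.014 by limma). The related LHCB1.2 and LHCB1.3 were more abundant and not called (0.49 ± 0.46 and 0.61 ± 0.62). How reads were divided among the copies is not known. LHCB4.2 had 483, 429 and 486 RPKM in 3x nrpd1 and 252, 233 and 176 RPKM in 3x wt embryos (1.11 ± 0.23). RBCS3B, the small subunit of Rubisco, differed by 1.07 ± 0.29. 1 of the 47 was higher after the length trend was removed, none when any one 3x wt library was left out, 2, 7 and 1 when 3x nrpd1 replicate 1, 2 or 3 was left out. None of 29 cell cycle genes (median 0.39) and none of 24 ribosome biogenesis genes (median 0.43) was called in either direction with all libraries. Among cell cycle genes, 1 was higher without 3x nrpd1 replicate 1, 3 without replicate 2 and 2 on the RPKM as deposited, and 1 was lower without 3x nrpd1 replicate 3. Among ribosome biogenesis genes, 2 were higher without 3x nrpd1 replicate 2, 2 without 3x wt replicate 1 and 1 after the length trend was removed. PSBY, of photosystem II, was the photosynthesis gene nearest 0 (0.04 ± 0.22). CYCA2;3, a cyclin, had 8.63 to 20.7 RPKM in 3x nrpd1 and 14.2 to 18.0 RPKM in 3x wt embryos, and NUG2, which acts in ribosome assembly, had 52.1, 44.4 and 39.8 RPKM in 3x nrpd1 and 43.8, 41.6 and 37.0 RPKM in 3x wt embryos.

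The lists of flowering repressors, gibberellin enzymes and cuticle genes had 1 called gene each, and that of flavonoid synthesis had more. FLC, a repressor of flowering, was the 1 lower member of 5 tested FLC and MAF genes, with 29.6, 23.1 and 27.7 RPKM in 3x nrpd1 and 72.2, 72.4 and 62.8 RPKM in 3x wt embryos (-1.34 ± 0.19, adjusted p = 0.0045 by limma), and it kept its call without any single library. GA20OX2, an enzyme of gibberellin synthesis, had 8.74, 9.17 and 5.17 RPKM in 3x nrpd1 and 3.46, 2.59 and 1.98 RPKM in 3x wt embryos (1.37 ± 0.24), the 1 higher gene of 4 tested, and its call was lost without 3x wt replicate 2 or 3. MAF5, a relative of FLC, and GA20OX3 were the members nearest 0 of their lists (-0.06 and 0.11). GPAT4, which makes cutin precursors, was the 1 lower gene of 14 for epidermis and cuticle (-1.33 ± 0.28), and its call was lost without 3x wt replicate 2 or 3 or 3x nrpd1 replicate 1. Of 12 tested genes of flavonoid and proanthocyanidin synthesis, 4 were lower and 1 higher (median -0.04). When any one 3x wt library was left out, 8 could still be tested and 1 was lower, and the rest fell under the filter. TT5, a chalcone isomerase at the start of the pathway, had 43.0, 38.2 and 36.7 RPKM in 3x nrpd1 and 22.1, 21.1 and 14 RPKM in 3x wt embryos (1.06 ± 0.20), and it was not called without 3x nrpd1 replicate 3, without 3x wt replicate 2 or 3 or after the length trend was removed. FLS1, a flavonol synthase, was nearest 0 (0.15 ± 0.18). The 4 lower genes, BAN, TT10, DFR and LDOX, act late in that pathway and were under 9 RPKM in every triploid library. TT12 and TT19, also at low levels, were not called and differed in direction (0.99 ± 0.34 and -0.68 ± 0.29).

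BAN and TT10 are also markers of the seed coat, the maternal tissue around the seed. Of 13 seed coat markers, 5 were tested, 3 were lower and none was higher. TT12 and TTG2 were not called and had positive differences (0.99 and 0.34). When 3x wt replicate 1, 2 or 3 was left out, 4 could still be tested and 2, 1 and 1 were lower. Their summed level was 161, 177 and 110 RPKM in 3x nrpd1 and 265, 327 and 306 RPKM in 3x wt embryos, a ratio of 0.499 (exact permutation p = 0.1, the smallest possible here), and most of it came from ARA12. Without ARA12 the sums were 13.1, 13.2 and 8.85 RPKM in 3x nrpd1 and 24.1, 18.7 and 15.3 RPKM in 3x wt embryos. TT1, TT2 and TT16, which define the inner seed coat, were each at 0 in 5 of the 6 libraries. Of 21 endosperm markers, 5 were tested and 2 were higher, and none was called higher when any library but 3x wt replicate 1 was left out. Without any one 3x nrpd1 library only 3 of them could still be tested. ALE1 had 3.24, 3.59 and 1.11 RPKM in 3x nrpd1 and 0.968, 0.167 and 0.0554 RPKM in 3x wt embryos, and ZOU, which controls endosperm breakdown, had 1.9, 2.3 and 1.65 RPKM in 3x nrpd1 and 0.650, 0.187 and 0 RPKM in 3x wt embryos. The endosperm markers summed to 77.4, 90.8 and 26.8 RPKM in 3x nrpd1 and 96.4, 90.5 and 95.3 RPKM in 3x wt embryos (ratio 0.691, exact permutation p = 0.2), nearly all of it SUC5, a sucrose carrier. Without SUC5 the sums were 10.7, 23.2 and 7.60 RPKM in 3x nrpd1 and 10.2, 8.12 and 4.04 RPKM in 3x wt embryos, a ratio of 1.85, and AGL36 and AT1G49290 were at 0 throughout. TTG2 of the seed coat list and PHE1 of the endosperm list were nearest 0 (0.34 and 0.05). The part that tissue around the embryo had in the differences was not tested.

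The embryo markers were present in both groups. Of 19 markers, 18 were tested, and their sums were 626, 612 and 426 RPKM in 3x nrpd1 and 515, 442 and 398 RPKM in 3x wt embryos (ratio 1.23, exact permutation p = 0.3). Without LEC1 the sums were 433, 415 and 237 RPKM in 3x nrpd1 and 414, 363 and 333 RPKM in 3x wt embryos, a ratio of 0.978 (exact permutation p = 1). LEC1 was the 1 higher member and WOX5, a factor of the root stem cell niche, the 1 lower, with 7.35, 5.95 and 7.61 RPKM in 3x nrpd1 and 12.9, 15.2 and 16.0 RPKM in 3x wt embryos (-1.01 ± 0.23, adjusted p = 0.023 by limma). The WOX5 call was lost without any of 5 libraries. ATML1, which marks the epidermis, had 61.9, 54.6 and 26.1 RPKM in 3x nrpd1 and 54.9, 43.1 and 39.0 RPKM in 3x wt embryos.

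The same change of pollen donor in diploid embryos gave another picture, and it shares no library with the triploid comparison. Between 2x nrpd1 and 2x wt embryos, none of 17472 genes was called (limma), while 984 had an unadjusted p under 0.05, which are 5.63% of those tested. The study, which tested counts with DESeq2, called 9 genes in this comparison, so the absence of calls here is no proof of no difference. Of the 570 genes higher in 3x nrpd1, 532 were tested in the diploids and 269 of them (50.6%) had the same sign there, and 36 also had an unadjusted p under 0.05 in that direction (6.77%, against 3.26% of all genes tested at both ploidies). Of the 1165 lower genes, 772 were tested in the diploids and 373 (48.3%) had the same sign. In that direction 25 had an unadjusted p under 0.05 (3.24%, against 2.44%). In the opposite direction it was under 0.05 for 17 of the 532 higher and 38 of the 772 lower genes. The matching shares of all genes tested at both ploidies were 2.44% and 3.26%. The median diploid difference of the called genes was 0.00 on the higher and 0.01 on the lower side.

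The difference between the ploidies was tested with an interaction term over all 12 libraries, the triploid difference minus the diploid one. This term was past the thresholds for 515 genes in the direction of higher and 988 in the direction of lower in the triploids, of 18561 tested (2.77% and 5.32%). It had the same direction and passed for 407 of the 570 higher genes (71.4%) and for 837 of the 1165 lower genes (71.8%). These genes were chosen by the triploid difference, which is part of the term, so high shares were largely set by that choice. In the lower direction the term passed for all 10 storage genes and 16 of 23 LEA and dehydration genes, but for 2 of 13 heat shock genes. It also passed there for 4 of 14 genes of ABA metabolism and 1 of 4 of galactinol and raffinose synthesis. Ploidy and age change together in this design, with 8 DAP triploid and 6 DAP diploid embryos, and cannot be told apart.

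**Figure D5:**
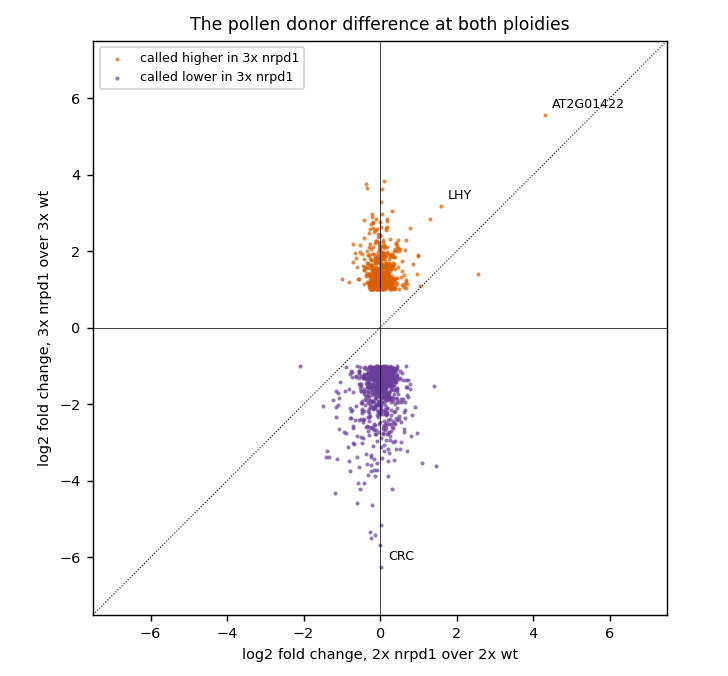
Log2 difference between pollen donors for the called genes that were also tested in the diploids, 3x nrpd1 over 3x wt (vertical) against 2x nrpd1 over 2x wt (horizontal), with the dotted line where both are equal. The 532 higher (orange) and 772 lower (purple) genes gather around 0 on the horizontal axis, with 50.6% and 48.3% of the same sign there.

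AT2G01422, a non-coding RNA gene on chromosome 2 (183940 to 184734), had the largest difference on the higher side, and it followed the nrpd1 pollen at both ploidies. It had 36.8, 5.78 and 55.8 RPKM in 3x nrpd1 and was listed at 0 in 3x wt embryos, at least 74.1-fold higher against 3 reads per library. It fell under the filter when any 3x nrpd1 library was left out. In the diploids it had 8.71, 30.2 and 17 RPKM in 2x nrpd1 and 0.199, 1.35 and 0 RPKM in 2x wt embryos (log2 difference 4.3, adjusted p = 0.092 by limma). The groups did not overlap at either ploidy, and the interaction was not past the threshold (1.38, adjusted p = 0.43). AT5G35935, an uncharacterized gene on chromosome 5, had 2.72, 2.87 and 1.75 RPKM in 3x nrpd1 and 0.804, 0.524 and 0.516 RPKM in 3x wt embryos, and 3.13, 2.44 and 1.98 RPKM in 2x nrpd1 and 0, 0.0236 and 0 RPKM in 2x wt embryos.

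Some genes that the study had picked from the diploid libraries were also called in the triploids (2 higher and 2 lower of 8 tested), and that choice used these diploid values. MLS, the malate synthase of the glyoxylate cycle that turns oil into sugar, had 2.32, 2.66 and 3.17 RPKM in 3x nrpd1 and 32.5, 36.6 and 38.1 RPKM in 3x wt embryos (-3.48 ± 0.23, adjusted p = 0.00015 by limma). In the diploids MLS had 1.24, 1.82 and 1.15 RPKM in 2x nrpd1 and 2.58, 2.58 and 3.50 RPKM in 2x wt embryos, and the interaction passed (-2.71). bZIP58, a leucine zipper factor, had 2.78, 1.19 and 1.02 RPKM in 3x nrpd1 and 0.187, 0 and 0 RPKM in 3x wt embryos. bZIP58 and AT5G35935 were the 2 higher genes, and neither was called when any library but 3x wt replicate 1 was left out. Without any one 3x nrpd1 library, 6 of the 8 could still be tested. SUC1, a sucrose carrier, had 4.41, 3.28 and 0.647 RPKM in 3x nrpd1 and at least 7.09 RPKM in each 3x wt library (-1.65 ± 0.44, adjusted p = 0.043), a call that was lost without 3x nrpd1 replicate 2 or any one of the 3x wt libraries. DOT1, AT4G04223, AT2G41640 and ESM1 were not called, and AT5G24240 was under the filter.

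The storage genes also show where 3x nrpd1 embryos stood beside the younger diploids. CRC had 26.1 to 66.7 RPKM in 3x nrpd1 embryos, and 1.58 to 8.08 RPKM in 2x nrpd1 and 2.48 to 7.13 RPKM in 2x wt embryos, all far below the 2153 to 4457 RPKM of 3x wt. ENODL10 had 18.8 to 27.3 RPKM in 3x nrpd1, 9.23 to 17.9 RPKM in 2x nrpd1 and 11.5 to 15.8 RPKM in 2x wt, and 3x wt stood alone at 0.455 to 2.64 RPKM. FLC had 23.1 to 29.6 RPKM in 3x nrpd1 embryos, and it had 10.7 to 13 RPKM in 2x nrpd1 and 10.2 to 11.1 RPKM in 2x wt embryos. These values stand side by side without a test, since the ages differ.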

How the data were processed

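Poly(A) RNA was sequenced from 12 embryo libraries. The submitters' processing notes name Trimmomatic, TopHat2 and TAIR10, and the authors deposited RPKM for 33602 genes per library, used here as given. Kit strandedness was not given in the sources used here. Read totals were recovered from the steps of the lowest RPKM values, and exon lengths and names came from TAIR10.1 (32835 genes matched), so reads per gene are approximate. RPKM were scaled by median ratios and tested with limma 3.58.1 (R 4.3.3, moderated with a trend) on log2(RPKM + 0.5), among genes with at least 1 RPKM in 3 libraries of the fit, using the 6 triploid, the 6 diploid or, for the interaction, all 12 libraries. Sums were compared on the RPKM as deposited by exact two-sided permutation. The columns in use were matched to samples by name, and each replicate was a separate cross, so p-values measure the spread between crosses. The script was tested on simulated data. Named genes were NRPD1, the 10 largest and 10 smallest differences among called genes without overlap, in each list the 3 largest called members and the one nearest 0, and genes named by the study. The lists and the comparison were chosen with earlier results of these data known. Alternatives changed the pseudocount (0.1, 1), the filter, the scaling, the moderation, the length trend (removed by lowess), the replicate block and the set of libraries.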

Additional observations from a re-analysis of the deposited data

Results flagged for a closer look

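The pollen donor difference differed between triploid and diploid embryos by the interaction term for 515 genes in the higher and 988 in the lower direction (limma, adjusted over 18561 genes), which marks these results for a second look. Groups of 3 libraries were too small for a test of single outlying libraries. Among the 10 genes with the largest triploid difference on the higher side, the interaction was 3.72 for ENODL10, 4.18 for AT2G41082, 4.02 for AT5G55410, 3.58 for AT5G22520, 3.23 for AT1G50650, 3.19 for RGP3 and 2.9 for AT1G12080 on the log2 scale. On the lower side it was -8.47 for AT1G47395, -7.13 for AT1G47400, -7.21 for AT1G04560, -7.22 for LEA (AT2G21490), -6.43 for HSD1 (AT5G50600), -6.50 for AT4G07965, -6.37 for the HSD1 copy AT5G50700, -6.32 for CRC, -6.43 for PER1 and -6.06 for MSRB6. AT2G01422, LHY and THI2.2 were the members of these 20 for which the interaction was not called. All 20 were chosen by their triploid difference, which is part of the term.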

How the results depend on the processing

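Counts of 3x nrpd1 against 3x wt ranged from 176 to 548 higher and from 348 to 1311 lower genes when 1 library was left out, and a filter at a mean of 5 RPKM gave 358 and 664. For the interaction these ranges were 334 to 696 and 450 to 1202, with 514 lower genes at that filter. In 2x nrpd1 against 2x wt, 1 gene was higher without a filter, with the replicate block and with all 12 libraries in one fit, and leaving out 1 library gave 0 to 4 higher and 0 to 15 lower genes. The 984 diploid genes with an unadjusted p under 0.05 were 1503 with the replicate block, 393 with all 12 libraries in one fit and 1673 without 2x nrpd1 replicate 3. Other settings kept the counts of called genes in the triploid and interaction comparisons within 1.5 times, among them quantile normalization (773 higher and 1117 lower). No named gene that was called changed direction, which leaving out 1 library could hardly bring about where the groups did not overlap. The summed levels kept their direction under other scalings and without any single library, but without the most abundant gene of a list the ratio turned to 1.85 for endosperm markers (0.691 with SUC5) and to 0.978 for embryo markers (1.23 with LEC1). By the limit of 0.1 for every pair, replicate numbers did not pair the libraries: same-numbered deviations correlated by 0.080, 0.044 and 0.036 in the triploids, each the best for its library, and by 0.028, 0.227 and 0.26 in the diploids, where replicates 2 and 3 correlated best with their own number and replicate 1 of 2x nrpd1 did not. This is a hint of shared structure from the data and not the design, and the replicate block gave 548 higher and 1173 lower genes. Low read totals limit genes near 1 RPKM.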

Other observations

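8 genes of the circadian clock or under its control were looked at after LHY appeared among the 10 largest differences, so they are no list from which a share can be read. LHY, a morning factor of the clock, had 25.9, 33.7 and 5.29 RPKM in 3x nrpd1 and 1.97, 2.58 and 0.451 RPKM in 3x wt embryos (3.17 ± 0.62, adjusted p = 0.014 by limma), and 15.4, 11.6 and 4.46 RPKM in 2x nrpd1 and 4.04, 4.77 and 1.02 RPKM in 2x wt embryos. Replicate 3 was the lowest of each of the 4 groups. Its partner CCA1 differed by 1.3 ± 0.44 in the triploids (adjusted p = 0.088). PRR9 differed by 0.91 (adjusted p = 0.2) and, like CCA1, was not called. TOC1 (-1.31), PRR7 (-1.15), GI (-1.5), PRR3 (-2.17) and GRP7 (-2.01) were lower in 3x nrpd1. GRP7, an RNA-binding protein under clock control, had 413, 346 and 424 RPKM in 3x nrpd1 and 1872, 1224 and 1798 RPKM in 3x wt embryos, and 606, 582 and 3040 RPKM in 2x nrpd1 and 1050, 2224 and 4671 RPKM in 2x wt embryos. The hour of dissection is not given in the sources used here, and its part in these values was not tested. The calls of LHY, PRR7 and GI were lost when a 3x wt library was left out (replicate 1 or 3 for LHY, any one for PRR7 and GI), and PRR7 was not called without 3x nrpd1 replicate 3.

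DIN10 and GDH2, picked after their values were seen, were lower in 3x nrpd1 and had lower means, not called, in 2x nrpd1. DIN10 had 2.43, 1.84 and 0.945 RPKM in 3x nrpd1 and 9.44, 9.18 and 12.8 RPKM in 3x wt embryos, and 4.46, 4.02 and 16.2 RPKM in 2x nrpd1 and 14, 12.5 and 22.5 RPKM in 2x wt embryos. GDH2, a glutamate dehydrogenase, had 30.3, 33.3 and 41.3 RPKM in 3x nrpd1 and 61.0, 74.2 and 84.4 RPKM in 3x wt embryos. In the diploids their differences were -1.15 and -0.89, with an adjusted p of 0.86 and 0.84 by limma.

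24 genes had at least 1 RPKM in each 3x wt library and were listed at 0 in the 9 other libraries, 2x wt included. No gene showed the converse for 3x nrpd1. Whether the tetraploid Col-0 line differs from diploid Col-0 at these genes was not tested. AT1G47395 and AT2G30766 among them belong to the iron deficiency list. Besides AT1G47395 and the pair AT2G30760 and AT2G30766, which overlap in part on opposite strands so that reads of the shared stretch cannot be assigned, several of them had steady levels in 3x wt. AT4G07965 had 43.4, 45.2 and 39.7 RPKM, and AT3G24542 had 27.6, 24.9 and 24 RPKM in them.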
